A study of Mus musculus with 12 samples.

Results

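The 40 genes described here carry out DNA replication and mitosis, and they were measured by RNA-Seq in mouse 4T1 cells. They were taken from a list of gene symbols, 22 for replication (Mcm2 to Mcm7, Mcm10, Cdc6, Cdc7, Cdc45, Cdt1, Gins1, Gins2, Pcna, Pola1, Pold1, Pole, Rfc3, Rfc4, Tyms, Rrm1 and Rrm2) and 18 for mitosis (Ccnb1, Ccnb2, Ccna2, Cdk1, Plk1, Aurka, Aurkb, Bub1, Bub1b, Cdc20, Cenpe, Cenpf, Kif11, Kif20a, Top2a, Mki67, Tpx2 and Birc5). The tables list 35521 genes, of which 12555 passed the filter on low counts, and all 40 members were among those tested.

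4T1 is a mammary carcinoma cell line from a BALB/c mouse. The libraries form 3 groups of 4. Tumor-primed cells (4T1_MDSC_T) had shared wells for 48 h with Gr1+ cells, a marker of granulocytic and monocytic myeloid cells, taken from tumors of BALB/c mice that had been injected with 4T1 cells, 21 days before by the labels, while the study's methods name another day. Spleen-primed cells (4T1_MDSC_S) were treated alike with Gr1+ cells from the spleens of such mice, with a Transwell membrane of 0.4 µm pores between the cell types in both cases. Parental 4T1 cells (4T1) had no Gr1+ cells, and the labels do not say whether their wells held inserts. The labels do not say whether replicates were separate cultures, or whether the Gr1+ cells of different wells came from different mice, so p-values measure the spread between these libraries, which may be technical. The study's design text names the question as the comparison of cells educated by tumor and by spleen Gr1+ cells.

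Before a cell copies its DNA, replication origins are licensed by loading the ring of MCM proteins, which needs CDC6 and CDT1. The kinase CDC7 then fires the origins, CDC45 and the GINS proteins complete the helicase, and DNA polymerases copy the strands while held by the PCNA clamp. Mitosis is driven by cyclins A and B with CDK1 and by the Polo and Aurora kinases, and genes of both phases are among the transcripts by which dividing tumor cells are recognised.

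Levels are given as CPM, read counts divided by library size, scaled by the trimmed mean of M values (TMM) so that most genes of all libraries line up, and a gene was called when its Benjamini-Hochberg adjusted p over all genes tested was under 0.05 in edgeR's quasi-likelihood test. Library depth lay between 24566183 and 31637755 reads. The scale matters for genes that moved little. The 13 protein-coding mitochondrial genes held 4.26% to 6.75% of reads in parental libraries, 2.53% to 3.17% in spleen-primed and 2.10% to 2.54% in tumor-primed ones. The median log2 fold change of all genes against parental cells was 0.02 for both primed groups on the TMM scale, but 0.21 for tumor-primed and 0.19 for spleen-primed cells when libraries were scaled by their totals. Fold changes are therefore relative to the bulk of genes, and calls that were lost with library totals are named. Spleen-primed replicate 3 stood apart in its long genes, which is described with the mitotic genes. The 15 granulocyte and monocyte marker genes together reached 6.80 to 11.8 CPM in tumor-primed, 5.36 to 7.33 CPM in spleen-primed and 5.87 to 7.14 CPM in parental libraries. Of these genes 6, 7 and 5 were at 0 in every library of the group, Mpo, Elane, Camp, Ngp and Retnlg in all 12 libraries. Ly6g, the granulocyte Gr1 antigen, had at most 3 counts in a library. Only 3 of the 15 passed the filter, S100a8, Cxcr2 and Ltf. Of these, 2 were called higher in tumor-primed than in parental cells and 2 than in spleen-primed cells, where 31.2% and 4.66% of all genes were. In spleen-primed against parental cells 0 were called. Among markers not tested, Ptprc was at 0.04 to 0.14 CPM in tumor-primed, 0.03 to 0.22 in spleen-primed and 0.04 to 0.40 in parental libraries. Lyz2 was at 0.08 to 0.21, 0.03 to 0.11 and 0 to 0.08 CPM, with at most 6 counts in a library. All 7 epithelial markers were detected, with a summed level of 1878 to 2306 CPM in tumor-primed, 2367 to 2553 CPM in spleen-primed and 2647 to 3953 CPM in parental libraries. Against parental cells 0 were called higher and 4 lower in tumor-primed cells, where 31.2% and 28.0% of all genes were. In spleen-primed cells 1 was higher and 3 lower, against 25.7% and 22.5%. Epcam did not follow the sum, at 71.1 to 85.6, 84.0 to 91.9 and 62.2 to 79.2 CPM. The part of these differences in the results was not tested. In such bulk samples fewer cells with a transcript and less of it per cell cannot be told apart.

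Cdc7 rose in both primed groups and was the member that moved most. Per length, its parental level of 7.24 ± 1.33 TPM (a level per transcript length within a library; SD, n = 4) was the lowest of the 40 genes, followed by Pola1 with 19.7 ± 2.98 TPM, while Pcna had 332 ± 45.2 TPM and Top2a 294 ± 58.1 TPM. Cdc7 stood at 50.9, 51.8, 51.8 and 48.4 CPM in the tumor-primed libraries. The spleen-primed libraries held 48.0, 51.6, 54.6 and 49.1 CPM and the parental ones 19.3, 21.5, 18.7 and 18.2 CPM. Every primed library lay above every parental one, and the primed groups overlapped. The log2 fold change was 1.39 ± 0.06 (SE; adjusted p = 1.08e-08) for tumor-primed and 1.39 ± 0.06 (adjusted p = 1.57e-08) for spleen-primed cells. Between the primed groups it was -0.00 ± 0.06, with an adjusted p of 0.991.

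The Cdc7 reads did not all fall on protein-coding transcripts. Cdc7 lies on the plus strand of chromosome 5 (GRCm38). Its coding transcript Cdc7-201 has 12 exons. The transcript Cdc7-207, annotated as a retained-intron form with 11 exons, keeps the 788-base intron between exons 8 and 9, at chr5:106974697-106975484. Exon 8, of 96 bases within the coding sequence, is skipped in the coding transcripts Cdc7-202 and Cdc7-203. The ends of the kept intron and the spliced junction are shown because they are what separates the 2 forms at this place. Capitals mark exon bases and lower case marks intron bases, read 5′ to 3′ on the plus strand of GRCm38.
Intron start after exon 8, chr5:106974657-106974736: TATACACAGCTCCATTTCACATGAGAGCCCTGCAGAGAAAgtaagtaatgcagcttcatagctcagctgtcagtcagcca
Intron end before exon 9, chr5:106975445-106975524: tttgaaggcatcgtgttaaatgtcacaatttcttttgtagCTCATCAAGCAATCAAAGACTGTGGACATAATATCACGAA
Spliced junction of Cdc7-201: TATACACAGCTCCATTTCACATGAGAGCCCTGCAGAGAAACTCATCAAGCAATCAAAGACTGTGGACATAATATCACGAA
The intron begins with gt and ends with ag, as most introns do.

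Reads assigned to the coding Cdc7 transcripts rose by themselves. They came to 39.5, 37.7, 34.9 and 31.5 CPM in tumor-primed, 34.0, 37.4, 38.0 and 32.5 CPM in spleen-primed and 17.9, 18.9, 18.3 and 17.6 CPM in parental libraries. No primed library reached down to the parental range. When all genes were split by transcript class, the coding log2 fold change was 0.90 ± 0.07 (adjusted p = 7.83e-06) for tumor-primed and 0.87 ± 0.07 (adjusted p = 1.77e-05) for spleen-primed cells. The same fit put the median of all coding features at -0.11 and -0.12. With coding transcripts fitted alone, an alternative chosen after seeing the data, the changes were 1.03 (adjusted p = 8.73e-07) and 1.01 (adjusted p = 2.47e-06).

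Retained-intron reads of Cdc7 changed more. They stood at 10.8, 12.6, 16.2 and 16.3 CPM in tumor-primed libraries. Spleen-primed libraries had 13.3, 13.2, 15.9 and 15.3 CPM and parental ones 1.37, 2.36, 0.460 and 0.628 CPM. The groups did not overlap with the parental libraries, and the log2 fold changes were 3.45 ± 0.37 (adjusted p = 2.95e-05) and 3.48 ± 0.37 (adjusted p = 5.47e-05). Nearly all of these reads were assigned to Cdc7-207, with a mean of 386 counts (range 291 to 465) in tumor-primed, 409 counts (355 to 437) in spleen-primed and 31.1 counts (11 to 57.3) in parental libraries. The coding Cdc7-201 had 782, 872 and 373 counts.

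The share of Cdc7 reads on transcripts not annotated as protein coding was 22.3%, 27.3%, 32.6% and 34.9% in tumor-primed libraries. It was 29.1%, 27.6%, 30.4% and 33.7% in spleen-primed and 7.33%, 12.1%, 2.46% and 3.46% in parental libraries. All 8 primed libraries exceeded all 4 parental ones. The difference in means was 23.0 percentage points for tumor-primed and 23.9 for spleen-primed cells, each with p = 0.0286 in a two-sided exact permutation test, the smallest that 4 against 4 libraries can give, and 0.0429 adjusted over 3 comparisons. Tumor-primed and spleen-primed cells differed by -0.881 percentage points (p = 0.771, exact permutation test). A quantifier divides reads among overlapping transcripts, and it cannot separate a kept intron from unspliced RNA or from genomic DNA in this stretch. Retained-intron transcripts of all genes held 3.27% to 3.49% of reads in tumor-primed, 3.06% to 3.64% in spleen-primed and 2.05% to 2.28% in parental libraries. The part of this shift in the Cdc7 value was not tested.

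**Figure D1:**
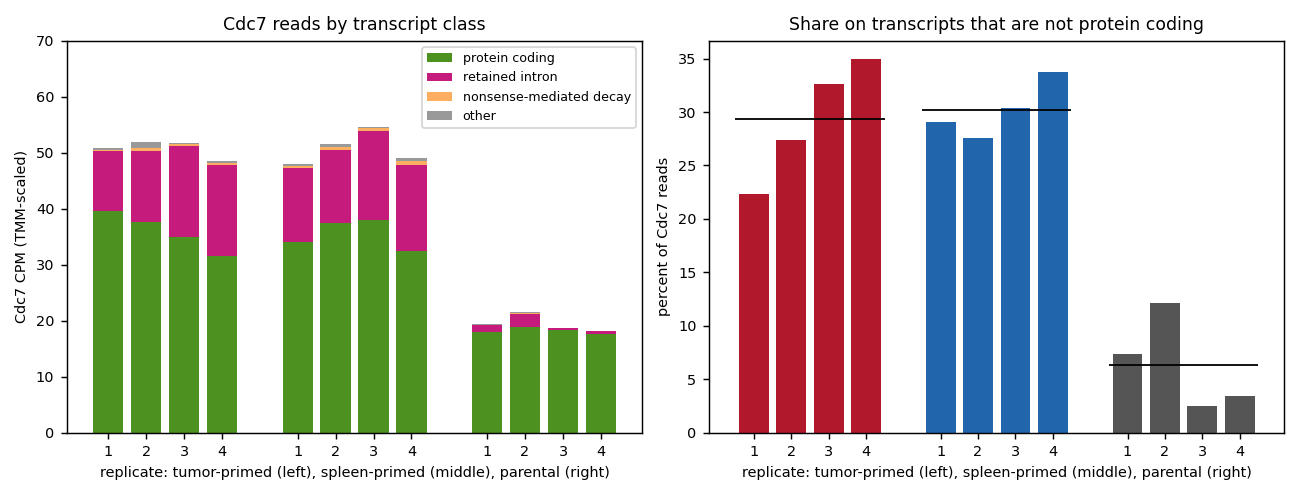
Cdc7 reads by transcript class (left, TMM-scaled CPM, stacked, 1 bar per library) and the percent of Cdc7 reads on transcripts that are not protein coding (right, lines are group means), with replicates 1 to 4 of tumor-primed, spleen-primed and parental cells. The coding part is 31.5 to 39.5 CPM in primed and 17.6 to 18.9 CPM in parental libraries, and the noncoding share has means of 29.3%, 30.2% and 6.34%.

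Other members also had more reads on retained-intron transcripts. Such a transcript is annotated for 33 of the 40 genes, and 27 of these features passed the filter. In each primed group 20 were called higher than in parental cells and 0 lower, where the other 7 tested were not called. The background was high, since 57.1% of the 4637 retained-intron features of all genes were called higher in tumor-primed and 53.5% in spleen-primed cells. A feature that passed only through the group where it is high had to differ, so the count is given as a description. Between the primed groups edgeR called 0 of the 27, with 1 at an unadjusted p under 0.05, where 0.496% of all retained-intron features were called and 5.09% had such a p.

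Retained-intron reads of Aurkb, the Aurora kinase of the chromosomal passenger complex, were 7.20, 7.78, 7.17 and 7.02 CPM in tumor-primed, 6.92, 6.83, 7.88 and 7.22 CPM in spleen-primed and 3.48, 4.08, 3.49 and 3.40 CPM in parental libraries. For Ccnb1, a cyclin that activates CDK1 at mitotic entry, the means were 13.1 ± 1.79, 13.7 ± 1.54 and 2.70 ± 2.12 CPM. For Pcna, the sliding clamp, they were 3.41 ± 0.400, 3.55 ± 0.648 and 0.475 ± 0.280 CPM. In all 3 genes the primed libraries lay above the parental ones, with log2 fold changes of 0.93 and 0.90 for Aurkb, 2.19 and 2.26 for Ccnb1, and 2.78 and 2.82 for Pcna, beside medians of 1.51 and 1.38 for all retained-intron features tested. Aurkb lay below these medians. These examples were chosen after their values were seen. Tyms, which makes thymidylate, had 60.6% ± 2.35, 61.5% ± 2.44 and 58.7% ± 1.07 of its reads on noncoding transcripts, and its retained-intron feature was called in neither group. The Gins2 feature was not called either, with log2 fold changes of 0.04 and 0.28.

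On the TMM scale replication genes other than Cdc7 leaned lower in primed cells. Against parental cells 3 of 22 were called higher and 12 lower in tumor-primed cells, where 31.2% of all genes tested were called higher and 28.0% lower. In spleen-primed cells 3 were higher and 9 lower, against 25.7% and 22.5% of all genes. The median log2 fold change was -0.19 and -0.09, beside 0.02 for all genes in both comparisons. Both comparisons use the same parental libraries. The same 3 genes were higher and 9 genes were lower in both groups, 3 were called lower in tumor-primed cells alone, and 7 were called in neither. Scaled by library totals, an alternative chosen after seeing the data, the split became 7 higher and 5 lower for tumor-primed and 9 higher and 1 lower for spleen-primed cells. On that scale 47.5% of all genes were called higher and 14.0% lower in tumor-primed, and 42.8% and 8.45% in spleen-primed cells, and the replication medians of -0.00 and 0.08 stood beside 0.21 and 0.19 for all genes. So the lean against 0 depended on the scale, while the replication medians lay below those of all genes on both. The 3 higher calls (Cdc7, Cdc45 and Rfc3) held in both comparisons. Higher calls gained with library totals were Gins1, Gins2, Pcna and Rrm2 in both groups, and Mcm4 and Mcm10 in spleen-primed cells. The lower calls that held were Mcm3, Mcm5, Cdt1, Tyms and Rrm1 for tumor-primed and Rrm1 for spleen-primed cells, so those of the other genes rest on the TMM scale. Length offsets allow for the mean transcript length of a gene in each library. Transcript lengths were the same in all libraries, so the offsets vary only with how reads were divided among a gene's transcripts. With these offsets 2 were called higher and 9 lower in tumor-primed cells, where 3222 and 2897 of all 12555 genes were. In spleen-primed cells 3 were higher and 5 lower, against 2592 and 2159 of all 12555 genes. The calls lost with these offsets were Pola1, Pole, Rfc3 and Rfc4 for tumor-primed and Mcm3, Cdt1, Pola1 and Pole for spleen-primed cells.

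**Figure D2:**
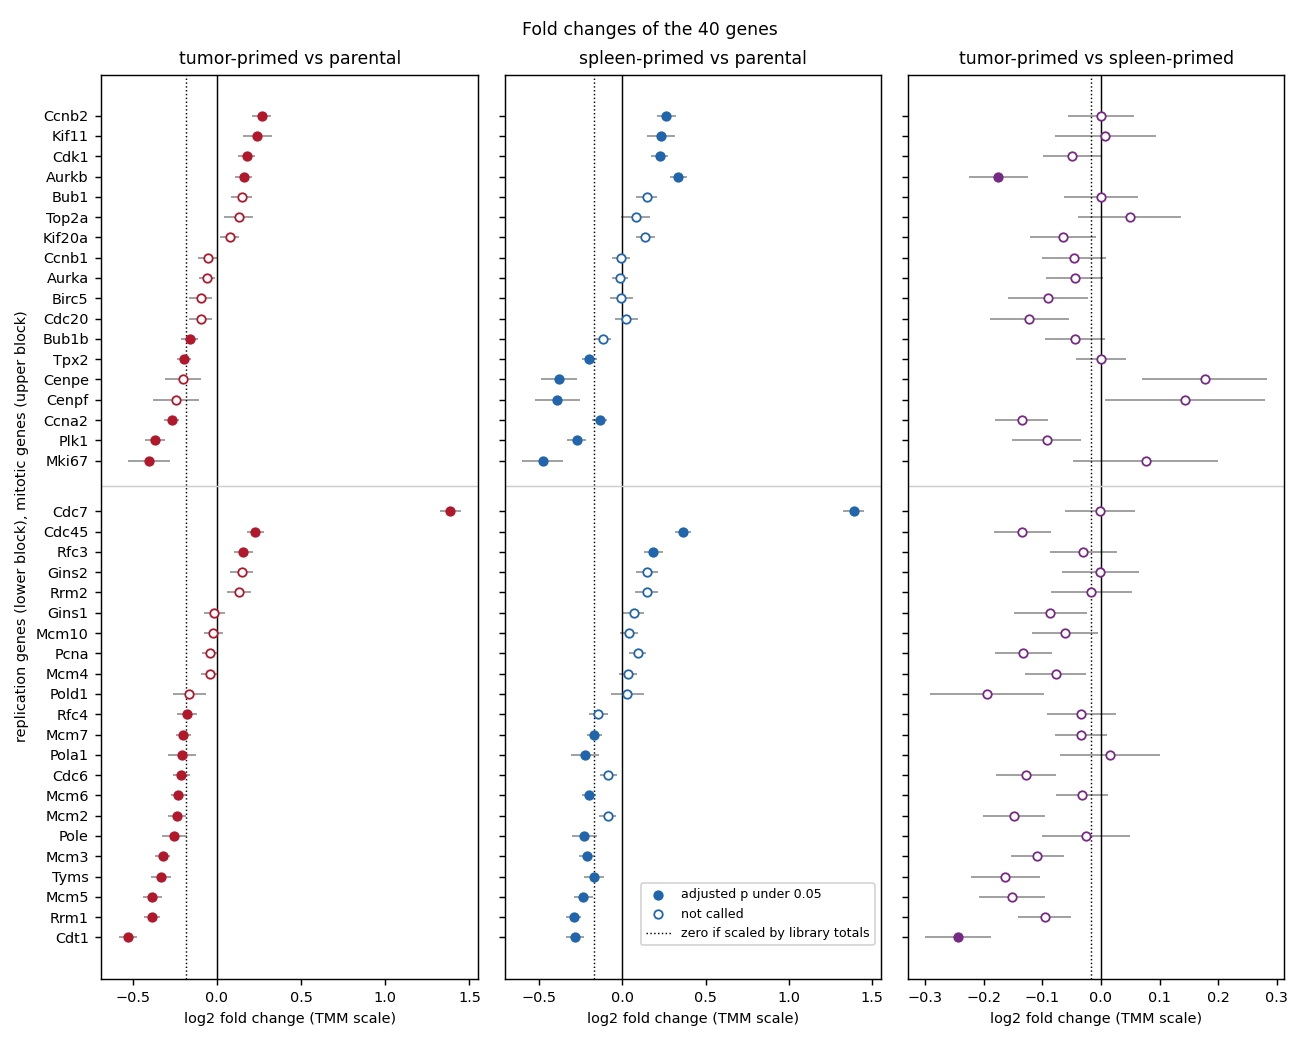
Log2 fold change of each of the 40 genes (points, bars are SE, n = 4 libraries per group) in the 3 comparisons, mitotic genes above and replication genes below, with filled points where the adjusted p was under 0.05. The dotted line marks where zero would lie with libraries scaled by their totals. Cdc7 at 1.39 in both comparisons with parental cells stands far to the right of the other genes, which lie between -0.53 and 0.36.

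Among the licensing genes, those of the MCM ring moved by small amounts. Mcm5 averaged 234 ± 13.2 CPM in tumor-primed, 259 ± 7.15 CPM in spleen-primed and 305 ± 18 CPM in parental cells, with log2 fold changes of -0.38 ± 0.06 and -0.23 ± 0.06. Mcm3 averaged 255 ± 11.3, 275 ± 3.98 and 318 ± 4.51 CPM, which is -0.32 ± 0.05 and -0.21 ± 0.04, the latter -0.08 (adjusted p = 0.364) with length offsets. Both were called lower in both primed groups on the TMM scale. Mcm6 averaged 331 ± 8.29, 339 ± 10.4 and 389 ± 9.55 CPM and Mcm7 averaged 298 ± 6.55, 305 ± 7.24 and 343 ± 12.2 CPM, and both were called lower in each group as well. Mcm2, at 164 ± 9.42, 182 ± 4.15 and 194 ± 8.04 CPM, was called lower in tumor-primed cells alone. Mcm4 was called in neither group, at 278 ± 6.70, 293 ± 13.1 and 286 ± 15.3 CPM. On the TMM scale 5 of the 6 ring genes were thus called lower in tumor-primed cells, where 28.0% of all genes tested were. In spleen-primed cells Mcm3, Mcm5, Mcm6 and Mcm7 were, against 22.5% of all genes. The calls of Mcm2, Mcm6 and Mcm7 were lost with library totals, as were the spleen-primed calls of Mcm3 and Mcm5.

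Cdt1, which loads the MCM ring, fell in both groups on the TMM scale. Its levels were 58.6, 57.3, 57.8 and 61.4 CPM in tumor-primed libraries. They were 65.1, 68.2, 77.0 and 68.3 CPM in spleen-primed and 85.3, 81.7, 83.5 and 88.7 CPM in parental libraries. The groups did not overlap and lay in the order tumor-primed, spleen-primed, parental. The log2 fold change was -0.53 ± 0.06 (adjusted p = 4.23e-06) for tumor-primed and -0.28 ± 0.06 (adjusted p = 0.000925) for spleen-primed cells, the latter not called with library totals or with length offsets (-0.14, adjusted p = 0.102). Cdc6, its partner in licensing, averaged 77.1 ± 2.29, 84.3 ± 2.07 and 89.4 ± 5.0 CPM and was called lower in tumor-primed cells alone, on the TMM scale only.

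Among the firing genes Cdc45, a part of the active helicase, rose. It reached 64.1, 64.9, 65.6 and 70.7 CPM in tumor-primed libraries. It reached 70.9, 74.3, 74.8 and 71.1 CPM in spleen-primed and 54.4, 58.0, 59.2 and 54.9 CPM in parental libraries. Both primed groups lay above the parental range, with log2 fold changes of 0.23 ± 0.05 (adjusted p = 0.00119) and 0.36 ± 0.05 (adjusted p = 6.17e-05). Other genes of this step were not called in either group on the TMM scale. With library totals Gins1 was called higher in both groups (0.17 and 0.24), as was Gins2 (0.33 and 0.32), and Mcm10 in spleen-primed cells (0.21). With coding transcripts alone Gins2 was called higher in tumor-primed cells (0.19, adjusted p = 0.0336). Gins1 averaged 20.1 ± 1.36, 21.4 ± 1.03 and 20.4 ± 0.695 CPM, Gins2 averaged 27.4 ± 2.64, 27.5 ± 1.2 and 24.8 ± 0.128 CPM, and Mcm10, which helps the helicase to start, averaged 102 ± 1.95, 107 ± 3.22 and 104 ± 7.93 CPM. Gins2 was called higher in tumor-primed cells without tumor-primed replicate 1 or 3 (0.19 and 0.18) and in spleen-primed cells without tumor-primed replicate 4 (0.15). Cdc45, Mcm7, Rfc4 and Gins2 overlap protein-coding genes of the opposite strand and Cdt1 one of its own strand, and the sources used here do not say whether strand was used in counting, so reads of the overlaps are uncertain.

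The polymerase genes Pola1 (primase-bound) and Pole (leading strand) were called lower in both groups on the TMM scale and in neither with library totals or length offsets. Pola1 averaged 86.1 ± 2.35, 85.2 ± 12.1 and 99.4 ± 5.36 CPM and Pole 156 ± 5.64, 159 ± 18.2 and 186 ± 9.88 CPM. The Pola1 calls were near the threshold in both groups (adjusted p = 0.0496 and 0.0444), and each was lost on leaving out 1 of 8 libraries, which are every tumor-primed one, spleen-primed replicate 2 and parental replicates 1 to 3. The spleen-primed Pole call was lost without parental replicate 3 or 4 (adjusted p = 0.0502 and 0.058). Pold1, the catalytic subunit of polymerase delta, averaged 67.3 ± 2.87, 77.1 ± 7.86 and 75.4 ± 11.9 CPM and was not called. Pcna, at 344 ± 10.2, 377 ± 20.8 and 354 ± 4.27 CPM, was not called in either comparison on the TMM scale. The clamp loader genes went opposite ways. Rfc3 was called higher in both groups, with 42.7 ± 2.11, 43.6 ± 2.71 and 38.3 ± 1.53 CPM, though without spleen-primed replicate 3 its spleen-primed call was lost (log2 fold change 0.13, adjusted p = 0.0545), and its tumor-primed call was lost without any of 5 libraries (tumor-primed replicates 2 and 4, parental replicates 1, 3 and 4), with adjusted p from 0.0505 to 0.105. Neither Rfc3 call held when coding transcripts alone were counted (0.10, adjusted p = 0.231, and 0.13, adjusted p = 0.132). Rfc4 was called lower in tumor-primed cells on the TMM scale, with 30.3 ± 0.793, 31.0 ± 2.55 and 34.2 ± 0.763 CPM, and without spleen-primed replicate 3 also in spleen-primed cells (-0.22, adjusted p = 0.00289).

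Of the nucleotide synthesis genes, Rrm1 and Tyms fell on the TMM scale and Rrm2 was not called. Rrm1, the large subunit of ribonucleotide reductase, had 395.9, 396.6, 402.9 and 407.2 CPM in tumor-primed libraries. It had 453.1, 431.7, 407.4 and 420.4 CPM in spleen-primed and 527.6, 508.5, 533.4 and 524.8 CPM in parental libraries. Parental libraries were above all primed ones, with log2 fold changes of -0.39 ± 0.05 (adjusted p = 1.07e-05) and -0.29 ± 0.05 (adjusted p = 0.000197), which held with library totals. Rrm2, the small subunit, averaged 410 ± 2.54, 414 ± 15.5 and 374 ± 43.8 CPM. Tyms averaged 110 ± 3.96, 123 ± 6.98 and 138 ± 8.65 CPM and was called lower in both groups, in spleen-primed cells on the TMM scale only. That call was lost without spleen-primed replicate 2 or 4 or parental replicate 3 or 4 (adjusted p from 0.062 to 0.0924). Without parental replicate 2, Rrm2 was called higher in both primed groups, by 0.19 (adjusted p = 0.0163) and 0.21 (adjusted p = 0.0131).

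**Figure D3:**
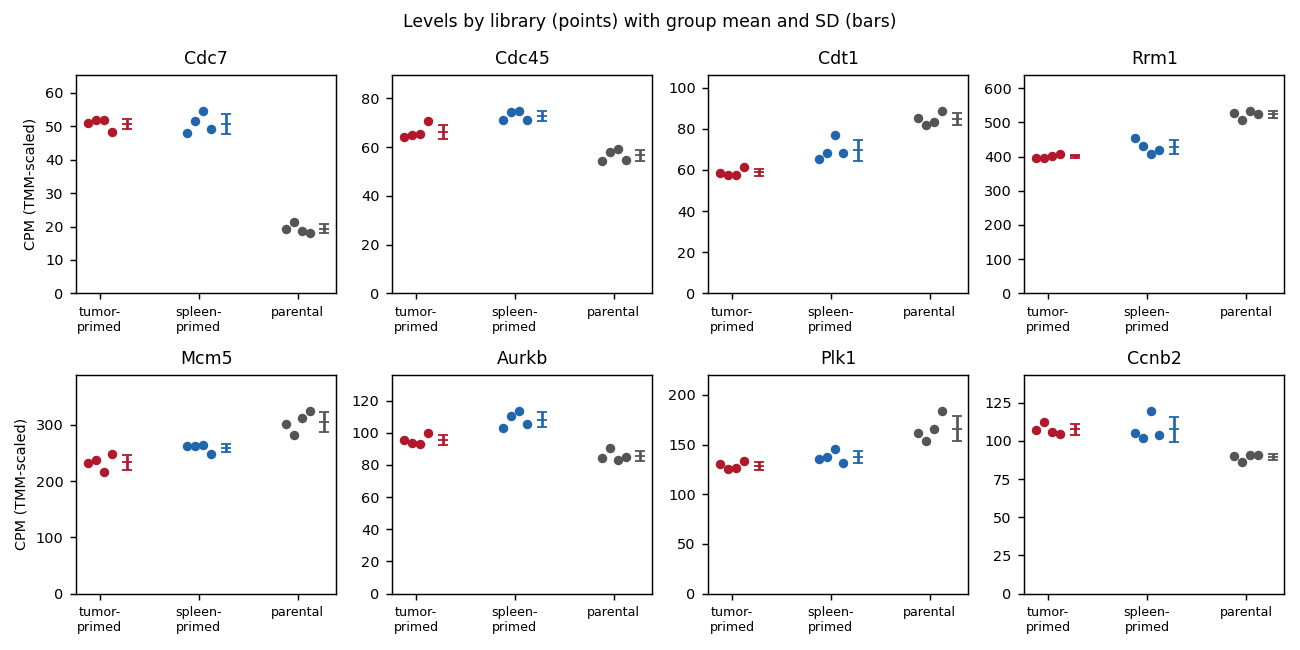
Levels of 8 genes in TMM-scaled CPM, with 1 point per library and bars for the group mean and SD (n = 4), each axis starting at 0. Cdc7 rises from a parental mean of 19.4 CPM to 50.7 and 50.8 CPM, Cdt1 lies at 58.8, 69.6 and 84.8 CPM in the order tumor-primed, spleen-primed, parental, and the other genes move by less.

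Mitotic genes were called in both directions, in numbers near the shares of all genes. In tumor-primed cells 4 of 18 were called higher and 5 lower, where 31.2% of all genes tested were called higher and 28.0% lower. In spleen-primed cells 4 were higher and 6 lower, against 25.7% and 22.5% of all genes. The median log2 fold change was -0.08 and -0.01. Ccnb2, Cdk1, Aurkb and Kif11 were higher in both groups, and these calls held with library totals. Ccna2, Plk1, Mki67 and Tpx2 were lower in both, Bub1b in tumor-primed cells alone and Cenpe and Cenpf in spleen-primed cells alone. With library totals the split was 8 higher and 1 lower for tumor-primed cells, where 47.5% of all genes were higher and 14.0% lower. For spleen-primed cells it was 9 higher and 1 lower, against 42.8% and 8.45% of all genes. The lower calls that held were Plk1 for tumor-primed and Mki67 for spleen-primed cells. Higher calls gained on that scale were Aurka, Bub1, Kif20a and Top2a in both groups, and Cdc20 in spleen-primed cells.

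Genes of the cyclin-CDK1 engine moved both ways. Ccnb2, a B-type cyclin, stood at 107.2, 112.3, 106.0 and 104.3 CPM in tumor-primed, 105.4, 101.7, 119.3 and 103.5 CPM in spleen-primed and 90.3, 86.3, 90.7 and 90.5 CPM in parental libraries. Every primed library was above every parental one, with log2 fold changes of 0.26 ± 0.06 (adjusted p = 0.00111) and 0.26 ± 0.06 (adjusted p = 0.00166). Cdk1, its kinase, averaged 258 ± 6.18, 267 ± 13.0 and 229 ± 8.44 CPM, with changes of 0.18 ± 0.05 and 0.22 ± 0.05. Ccnb1 was not called, at 199 ± 3.82, 205 ± 6.44 and 207 ± 14.9 CPM. Pseudogenes of Ccnb1, Ccnb2, Pcna and Tyms are annotated, so reads of these genes may be shared with near-identical copies.

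Ccna2, the S and G2 phase cyclin, had 370.4, 369.1, 369.9 and 376.8 CPM in tumor-primed libraries. It had 428.8, 399.4, 416.2 and 387.6 CPM in spleen-primed and 433.4, 450.3, 449.0 and 459.1 CPM in parental libraries. The 3 groups did not overlap. The log2 fold changes were -0.27 ± 0.05 (adjusted p = 0.00019) and -0.13 ± 0.05 (adjusted p = 0.0251), and with library totals neither was called lower. The spleen-primed call was also lost without spleen-primed replicate 2 or 4 or parental replicate 3 or 4 (adjusted p from 0.0504 to 0.0827), with length offsets (adjusted p = 0.0975), and with coding transcripts alone (adjusted p = 0.0737). Ccna2 overlaps Exosc9, a gene of the opposite strand.

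The mitotic kinases also parted. Aurkb stood at 95.7, 93.5, 93.2 and 100.1 CPM in tumor-primed libraries. Spleen-primed libraries held 102.9, 110.3, 113.3 and 105.5 CPM and parental ones 84.5, 90.2, 82.8 and 84.9 CPM. The groups were separate, with spleen-primed cells above tumor-primed and tumor-primed above parental ones. The log2 fold changes against parental cells were 0.16 ± 0.05 (adjusted p = 0.0144) and 0.34 ± 0.05 (adjusted p = 0.000147). Plk1, the Polo-like kinase, went the other way, with 130.2, 124.9, 126.0 and 133.5 CPM in tumor-primed, 135.7, 137.0, 145.1 and 131.1 CPM in spleen-primed and 161.5, 153.5, 165.6 and 183.4 CPM in parental libraries. Primed libraries were all below the parental ones, by a log2 fold change of -0.37 ± 0.06 (adjusted p = 0.000124) and -0.27 ± 0.06 (adjusted p = 0.00177). Aurka, which acts at the spindle poles, was not called, at 116 ± 5.27, 120 ± 3.42 and 121 ± 2.02 CPM. Tpx2, its activator, was called lower in both groups on the TMM scale only, at 259 ± 3.30, 259 ± 8.76 and 297 ± 6.23 CPM. Birc5 (survivin), which binds AURKB in the passenger complex, was not called, at 134 ± 5.76, 142 ± 15.1 and 143 ± 5.19 CPM, though with length offsets it was lower in tumor-primed cells (-0.23, adjusted p = 0.0246).

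Bub1 was not called, at 192 ± 8.06, 192 ± 15.8 and 173 ± 8.35 CPM, though it was called higher in both groups without spleen-primed replicate 3 or parental replicate 2, and in tumor-primed cells without spleen-primed replicate 1 (log2 fold changes of 0.15 to 0.18). With length offsets Bub1 was called higher in both groups as well (0.27 and 0.22). Its relative Bub1b, of the spindle checkpoint, was called lower in tumor-primed cells on the TMM scale only, at 170 ± 6.95, 175 ± 8.92 and 190 ± 4.87 CPM, and not with length offsets (-0.04, adjusted p = 0.692). Cdc20, the activator of the anaphase-promoting complex, was not called, at 173 ± 9.82, 189 ± 16.7 and 185 ± 9.84 CPM. Kif11, the motor that separates spindle poles, averaged 206 ± 10.7, 205 ± 19.6 and 175 ± 20.9 CPM, and was called higher in both groups, which overlapped with the parental one. Its tumor-primed call was lost without tumor-primed replicate 1 or 3 or parental replicate 3 or 4, and its spleen-primed call without tumor-primed replicate 1, spleen-primed replicate 1, 2 or 4 or parental replicate 3 or 4 (adjusted p from 0.0528 to 0.113) or with length offsets (adjusted p = 0.0636). Kif20a, a motor of cytokinesis, averaged 245 ± 6.09, 256 ± 3.06 and 233 ± 19.1 CPM, and was called higher in spleen-primed cells without parental replicate 1 or 2 (0.17 each). Top2a, which untangles DNA, was not called, at 1281 ± 43.8, 1239 ± 151 and 1172 ± 118 CPM, though with length offsets it was higher in spleen-primed cells (0.19, adjusted p = 0.0355).

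The longest members depended on spleen-primed replicate 3. In this library long genes were low and short genes high compared with the other 3 spleen-primed libraries, by a median log2 difference over all genes tested of 0.20 in the shortest of 5 equal bins of gene length (up to 1079 bases) and -0.28 in the longest (from 3761 bases). Over the 40 members the correlation with log2 length was -0.85, given as a description since genes of 1 library are not independent. Mki67, the Ki-67 proliferation marker, had 601.8 CPM there and 921.2 to 1021.1 CPM in the other 3. Cenpf, of the kinetochore, and Cenpe, a kinetochore motor, had 147.4 against 244.6 to 270.7 CPM and 191.2 against 274.3 to 302.6 CPM. The library was the lowest of its group in all 3 genes. Smaller shifts with length stood in other libraries. In the shortest and longest bins parental replicate 4 was at 0.11 and -0.11, and parental replicate 2 at -0.08 and 0.11. The members' correlation with log2 length was -0.19 and 0.08 in these libraries. It was -0.76 in tumor-primed replicate 2 and 0.77 in tumor-primed replicate 3.

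Mki67 averaged 920 ± 72.3, 872 ± 185 and 1215 ± 65.0 CPM, with log2 fold changes of -0.40 ± 0.12 (adjusted p = 0.0126) and -0.48 ± 0.12 (adjusted p = 0.00602). Without spleen-primed replicate 3 the latter was -0.35 (adjusted p = 0.000835). Cenpe averaged 296 ± 18.7, 262 ± 48.7 and 340 ± 11.6 CPM and Cenpf 254 ± 15.4, 230 ± 56.2 and 301 ± 9.77 CPM. Both were called lower in spleen-primed cells alone, at -0.38 and -0.39. Without that library these values were -0.27 and -0.24, and the tumor-primed changes of -0.20 for Cenpe (adjusted p = 0.00422) and -0.25 for Cenpf (adjusted p = 0.00074) were called too, so a difference between the primed groups is not shown for these genes. The spleen-primed Cenpf call was lost without parental replicate 1, 2 or 3 (adjusted p from 0.0535 to 0.0607), with length offsets (-0.07, adjusted p = 0.711) and with coding transcripts alone (adjusted p = 0.0579).

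**Figure D4:**
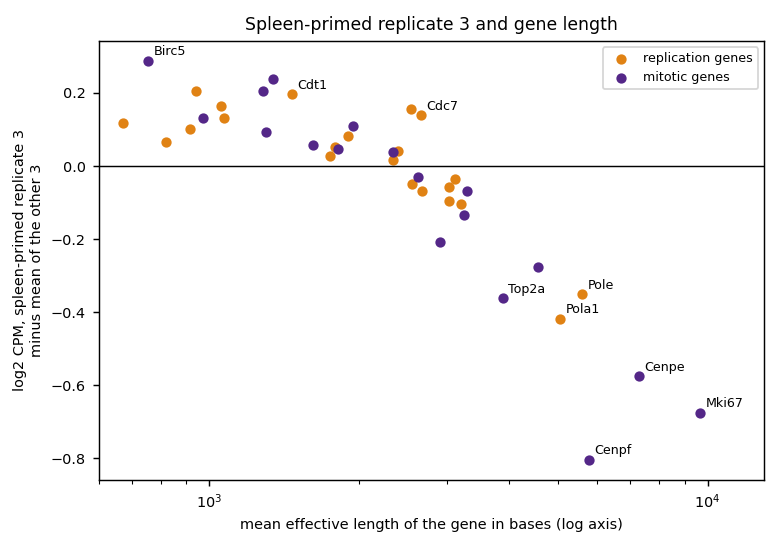
Log2 CPM in spleen-primed replicate 3 minus the mean of the other 3 spleen-primed libraries for each of the 40 genes (vertical axis) against the gene's mean effective length in bases (horizontal, log axis). Points fall from 0.29 for Birc5 to -0.80 for Cenpf as length grows.

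Between the primed groups few members differed. In tumor-primed against spleen-primed cells 1 of 22 replication genes and 1 of 18 mitotic genes were called lower and 0 higher, where 4.66% of all genes tested were called higher and 2.97% lower. Cdt1 was lower by a log2 fold change of -0.24 ± 0.06 (adjusted p = 0.0150), and without spleen-primed replicate 3 by -0.18 (adjusted p = 0.0436), while with length offsets the call was lost (-0.24, adjusted p = 0.0544). Aurkb was lower by -0.18 ± 0.05 (adjusted p = 0.0491), and without that library by -0.13 (adjusted p = 0.115). The Aurkb call was lost with library totals and with length offsets (adjusted p = 0.222) too, and on leaving out any of 7 further libraries (tumor-primed replicates 1 to 3, spleen-primed replicates 2 and 4, parental replicates 1 and 3), with adjusted p from 0.0608 to 0.15. The Cdt1 call was lost without tumor-primed replicate 1, 2 or 3 (adjusted p from 0.0506 to 0.0596), and without tumor-primed replicate 4 Mcm2 was called lower as well (-0.18, adjusted p = 0.0457).

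The replication genes lay mostly a little below 0 in this comparison. The log2 fold change was negative for 21 of 22, where 53.8% of all genes were negative, with a median of -0.08 beside -0.01 for all genes. Without spleen-primed replicate 3 it was negative for 17 of 22, where 50.5% of all genes were. An unadjusted p under 0.05 was found for 8 of them, where 22.6% of all genes had one. In 9 replication genes every tumor-primed library was below every spleen-primed one, where 8.51% of all genes showed this. Among mitotic genes 12 of 18 were negative and 3 were lower in every library. Genes of 1 sample move together, so these counts are a description.

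Other genes of the same processes, from lists of their own, moved in both directions. For tumor-primed against parental cells 8 of 20 other origin licensing and firing genes were called higher and 6 lower. The median log2 fold change was 0.10, and 31.2% of all genes tested were called higher and 28.0% lower. For spleen-primed cells 11 were higher and 4 lower, with a median of 0.16, against 25.7% and 22.5% of all genes. With library totals the splits were 14 and 1, and 13 and 1. On that scale 47.5% and 42.8% of all genes were higher and 14.0% and 8.45% lower. Dbf4, the regulatory partner that CDC7 needs, was at -0.14 (adjusted p = 0.0303) and -0.13 (not called), while Cdc7 itself rose. Orc6, of the origin recognition complex, rose by 0.53 in both groups. Ticrr, which helps to load CDC45, fell by 0.45 and 0.42 on the log2 scale. These values are on the TMM scale. With library totals only 1 gene of this list was called lower in each comparison, so at most 1 of Dbf4 and Ticrr was.

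Of 30 other DNA synthesis genes 6 were higher and 15 lower in tumor-primed cells (median -0.18), and 8 were higher and 11 lower in spleen-primed cells (median -0.08). Of all genes 31.2% were higher and 28.0% lower in tumor-primed, and 25.7% and 22.5% in spleen-primed cells. With library totals the list turned to 12 and 6, and 14 and 2. Of all genes 47.5% and 42.8% were then higher and 14.0% and 8.45% lower. Cad, which starts pyrimidine synthesis, was at -0.89 and -0.60. It was also lower in tumor-primed than in spleen-primed cells, by -0.29 (adjusted p = 0.0284), as was Asf1b, a histone chaperone, by -0.27 (adjusted p = 0.00998). Dna2, a nuclease that processes Okazaki fragments, rose by 0.68 and 0.89.

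Of 40 other mitotic genes 9 were higher and 7 lower in tumor-primed cells (median 0.04), against 31.2% and 28.0% of all genes. In spleen-primed cells 12 were higher and 4 lower (median 0.07), against 25.7% and 22.5%. With library totals 25 were higher and 1 lower, and 31 higher and 0 lower, where 47.5% and 42.8% of all genes were higher. Cenpa, the centromeric histone, rose by 0.56 in both groups, while Mybl2, a transcription factor of late cell cycle genes, was at -0.55 and -0.32. With library totals Mybl2 was not called lower in spleen-primed cells, since 0 genes of this list were. In tumor-primed against spleen-primed cells 0 were called higher and 1 lower. This was Spc24, of the kinetochore, at -0.24 (adjusted p = 0.0307), a call lost with library totals.

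Among 20 G1/S control genes 5 were higher and 8 lower in tumor-primed cells, against 31.2% and 28.0% of all genes. In spleen-primed cells 7 were higher and 3 lower, against 25.7% and 22.5%. With library totals the counts were 9 and 2, and 10 and 1. Of all genes 47.5% and 42.8% were then higher and 14.0% and 8.45% lower. Cdk2, the S phase kinase, rose by 0.82 and 0.86. E2f1, a transcription factor of replication genes, was at -0.32 and -0.22, and Ccnd1, the G1 cyclin D1, at -0.36 and -0.25. With library totals only 1 gene of this list was called lower in spleen-primed cells, so E2f1 and Ccnd1 were not both called there. Ccne1, a cyclin of CDK2, was lower in tumor-primed than in spleen-primed cells by -0.27 (adjusted p = 0.0314), and E2f2 by -0.33 (adjusted p = 0.0312). Both calls were lost with library totals.

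CDK inhibitor and cell cycle brake genes were mostly called higher on the TMM scale. Of the 17 listed, 14 were tested. In tumor-primed cells 9 were higher and 2 lower, against 31.2% and 28.0% of all genes. In spleen-primed cells 8 were higher and 2 lower, against 25.7% and 22.5%. The medians were 0.36 and 0.37 beside 0.02 for all genes. With library totals the splits were 9 and 1, and 12 and 1, where 47.5% and 42.8% of all genes were higher and 14.0% and 8.45% lower. The medians were then 0.54 and 0.54 beside 0.21 and 0.19 for all genes. Cdkn1b, which encodes the inhibitor p27, rose by 0.93 and 0.87. Gadd45a, a stress-induced growth arrest gene, rose by 1.06 and 0.55, and Ccng2, an atypical cyclin linked to arrest, by 0.92 and 0.50. Both were also higher in tumor-primed than in spleen-primed cells, by 0.52 and 0.43, as was the inhibitor gene Cdkn2c by 0.26. Cdkn1a, the p21 gene, was not called, at 0.01 and 0.10, and Ccng1 was lower, at -0.49 and -0.46.

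Promoter letters, which the list did not use, were compared between the replication and the mitotic genes. The RefSeq promoters of GRCm38.p6, from 250 bases before to 50 bases after each start, held 32 of the 40 genes. The letters TTTCCCGC or TTTGGCGC, known as binding sequences of E2F factors, were searched on both strands and stood in 9 of 18 replication promoters and 0 of 14 mitotic ones, where 1.80% of 27025 gene symbols in the table had them. The CHR letters TTTGAA or TTCGAA, of the cell cycle homology region bound by the DREAM complex, stood in 5 of 18 and 11 of 14, against 21.7% of all. In Cdc7 these letters stood at position 2 after a listed start and 237 bases before another. CCAAT boxes stood in 12 of 18 and 13 of 14, against 41.1%. A match is a description of letters and not a site in use, and none overlapped another motif searched. The 250 bases before the start are shown for a pair of genes of each kind, with the motif letters in capitals, read 5′ to 3′ on the gene's own strand.
Mcm5, chr8:75109259-75109508, plus strand: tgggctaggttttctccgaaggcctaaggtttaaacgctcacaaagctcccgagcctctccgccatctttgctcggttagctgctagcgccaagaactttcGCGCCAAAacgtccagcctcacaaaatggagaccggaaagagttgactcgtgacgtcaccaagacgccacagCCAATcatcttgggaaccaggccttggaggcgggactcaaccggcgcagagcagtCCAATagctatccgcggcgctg
Cdc6, chr11:98907901-98908150, plus strand: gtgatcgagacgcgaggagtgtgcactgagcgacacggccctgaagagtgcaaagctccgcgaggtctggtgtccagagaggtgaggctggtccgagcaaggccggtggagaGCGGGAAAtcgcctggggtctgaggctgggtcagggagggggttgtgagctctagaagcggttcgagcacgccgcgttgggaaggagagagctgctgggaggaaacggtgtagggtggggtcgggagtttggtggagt
Cdk1, chr10:69352913-69353162, minus strand: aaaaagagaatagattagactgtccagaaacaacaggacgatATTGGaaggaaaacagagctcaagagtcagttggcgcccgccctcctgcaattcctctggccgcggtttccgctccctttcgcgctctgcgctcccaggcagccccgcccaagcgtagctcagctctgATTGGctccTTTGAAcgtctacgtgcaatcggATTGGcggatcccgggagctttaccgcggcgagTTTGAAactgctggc
Mki67, chr7:135716380-135716629, minus strand: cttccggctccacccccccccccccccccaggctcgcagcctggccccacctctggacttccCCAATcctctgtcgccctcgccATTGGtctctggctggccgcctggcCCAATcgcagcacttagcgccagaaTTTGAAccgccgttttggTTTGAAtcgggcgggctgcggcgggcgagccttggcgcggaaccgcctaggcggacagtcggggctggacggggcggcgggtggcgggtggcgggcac
Mcm5 and Cdc6 hold 1 E2F motif each, at 149 and 138 bases before the start. Mcm5 also holds CCAAT boxes. Cdk1 and Mki67 hold 2 CHR motifs and 3 CCAAT boxes each.

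Set beside the calls on the TMM scale, 7 of the 9 replication genes with an E2F motif were lower in tumor-primed cells and 1 higher. Of the 9 without it 4 were lower and 2 higher, and of all genes tested 28.0% were lower and 31.2% higher. With library totals the lower calls held for Mcm3, Mcm5 and Cdt1 with the motif, and for Tyms and Rrm1 without it. The 5 replication genes with a CHR motif were Mcm2, Mcm7, Cdc7, Cdc45 and Rfc3. Their median log2 fold change against parental cells was 0.16 in tumor-primed and 0.19 in spleen-primed cells, beside -0.21 and -0.17 for the 13 without it, and the 3 replication genes called higher were all among these 5. The other two, Mcm2 and Mcm7, were called lower in tumor-primed cells, and Mcm7 in spleen-primed cells. This was noticed after the values were seen and rests on few genes, and no test was made.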

How the data were processed

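RNA of the 12 libraries was extracted with RNeasy columns and prepared with a TruSeq Stranded kit. For each library the authors deposited a transcript table that holds an estimated count per Ensembl transcript, with no normalization, and a TPM value, in which the authors' tool had divided by length and by the library's total. Per the labels' processing notes, FastQC, Trimmomatic 0.39, Salmon 1.4.0 and GRCm38 (mm10) were used. The annotation release and the use of strand are not given in the sources used here. A further deposited table of normalized values per gene was not used here.

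Estimated counts were added up by gene through GENCODE M21 (GRCm38), which holds 116021 of the 117081 transcripts listed (0.326% to 0.419% of reads fell on the rest), and rounded. A fit of all 12 libraries with edgeR 4.0.16 in R 4.3.3 used filterByExpr, TMM factors (0.88 to 1.05) and the quasi-likelihood test with Benjamini-Hochberg adjustment over 12555 genes. The fit by transcript class used the sums per gene of protein-coding, retained-intron, nonsense-mediated decay and other transcripts. CPM are TMM-scaled. TPM were compared only between genes of 1 group, since their median ratio of tumor-primed to parental cells was 0.47 on the log2 scale. Libraries of 1 group differed beyond counting error (chi-square divided by its degrees of freedom was at least 3.50). The scripts were tested on simulated counts.

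Per-library levels are given for Cdc7, for members called between the primed groups and otherwise for the 3 members of smallest p per list and comparison, and group means for all 40. The members and the other gene lists were chosen with earlier results of these data known. The alternatives were another normalization (RLE), length offsets, other filters, DESeq2 1.42.0, only the 8 libraries compared, a replicate block, coding transcripts only, a threshold of 0.01, each library left out, and, chosen after seeing the data, scaling by library totals with and without mitochondrial genes. Promoters came from RefSeq (GRCm38.p6) and other sequences from the GRCm38 genome.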

Additional observations from a re-analysis of the deposited data

Results flagged for a closer look

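Of 123 groups of 4 libraries checked for a value far from its 3 companions, 8 had one, and chance gives about 1 in 20. Spleen-primed replicate 3 was low in Pole, with 131.6 CPM against 167 to 169 in the other spleen-primed libraries, and high in Birc5, with 164.8 CPM against 132 to 136. Pole is among the long genes and Birc5 among the short ones. Parental replicate 4 was high in Mcm7, with 360.9 CPM against 336 to 339, and low in Pola1, with 91.45 CPM against 102 to 103. Parental replicate 2 was low in Ccnb2, with 86.34 CPM against 90.3 to 90.7. Tumor-primed replicate 4 was high in Ccna2, with 376.8 CPM against 369 to 370.4, replicate 3 in Bub1, with 203.6 CPM against 187 to 189, and replicate 2 in Birc5, with 142.3 CPM against 130 to 131.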

How the results depend on the processing

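Against parental cells, the counts of members called in either direction stayed within 1.5 times under the alternatives run, except that at an adjusted p under 0.01 the mitotic genes called in tumor-primed cells fell to 5 from 9. Leaving out 1 library gave 13 to 15 replication and 8 to 12 mitotic genes called in either direction for tumor-primed cells. For spleen-primed cells it gave 9 to 12 and 7 to 11. The share of all genes called in those fits is not given, so these counts were not set against it. The library totals changed the direction of the member calls more than their number, as given with each list. Length offsets took the lower replication calls of spleen-primed cells from 9 to 5. The lower calls of all 12555 genes in spleen-primed cells went from 2828 to 2159. Among members called on at least 1 of these scales, those that changed sign with library totals were, for tumor-primed cells, Gins1 (0.17), Pcna (0.15), Rfc4 (0.011), Aurka (0.13) and Bub1b (0.025), and, for spleen-primed cells, Mcm7 (0.0056), Tyms (0.0033), Ccna2 (0.037, and 0.003 with mitochondrial genes left out) and Aurka (0.16). A further 6 members in each comparison changed sign and were called on neither scale. The cause was not tested beyond the shares of mitochondrial reads given above.

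Between the primed groups the single replication call was 0 with length offsets, 0 at 0.01 and 0 to 2 on leaving out a library. The single mitotic call was 0 with RLE, length offsets, no filter, only 8 libraries, a threshold of 0.01 and both library totals, 2 with DESeq2, and 0 to 1 on leaving out a library. When 10 counts were required in every library, retained-intron features called higher were 7 for tumor-primed and 9 for spleen-primed cells. Fewer features were then tested, and the share of all such features called is not given, so these counts were not compared with the main ones.

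Same-numbered libraries did not deviate together (r from -0.164 to 0.148, other pairs -0.224 to 0.168, 3 of 12 best with their own number). With 4 libraries a group this cannot settle whether the numbers pair the libraries, and the labels do not say what a number marks. With the replicate number as a block, 14 replication and 9 mitotic genes were called in either direction for tumor-primed cells. For spleen-primed cells 10 and 9 were, and between the primed groups 1 and 0. The share of all genes called with the block is not given, so these counts were not set against it. Precision is limited by 4 libraries a group, and for retained-intron features by counts that are often low in parental cells.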
